A study of Homo sapiens with 15 samples.

Results

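The repeats described here are the long terminal repeats whose RepeatMasker name begins with LTR. They were chosen by name alone: of 834 named repeats in the table, 150 had a name starting with LTR, and 134 were kept after leaving out the 16 names of the LTR16 and LTR33 series. Of the 134, 126 name the long terminal repeat itself and 8 end in -int, which marks the internal part of an element. The 126 names fall into 71 number series, such as LTR5 or LTR12, and 30 of these hold at least 2 names that differ by a letter or other suffix.

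A long terminal repeat is the regulatory end of a retrovirus-like element. It carries the promoter and the polyadenylation signal, and each intact element has a copy at either end, while recombination between the copies leaves a solitary repeat. Endogenous retroviruses of humans are sorted into ERV1 (gammaretrovirus-like), ERVK (betaretrovirus-like) and ERVL (spumavirus-like) classes, and some old repeats descend from Gypsy-like retrotransposons. Methylation of CpGs in these repeats is known to help keep them silent in somatic cells, and their promoters can drive transcription when it is lost.

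The values are percent CpG methylation from bisulfite sequencing of DLD1, HCT116 and HCT8, established human cell lines of colorectal carcinoma. Each line was cultured in RPMI-1640 medium with fetal bovine serum and without drug (0 nM), or with 500 or 1000 nM 5-azacitidine, a cytidine analogue that traps DNA methyltransferases. There were 2 technical replicate libraries at 0 nM, 1 at 500 nM and 2 at 1000 nM per line, 15 in all. The percents were deposited as whole numbers for each repeat name, so copies of a repeat at different places in the genome, and solitary and paired copies, cannot be told apart. The number of reads behind a value is unknown, and no counting interval can be given. The table holds no genes, so the identity of the lines was not checked.

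Only in replicate 1 of untreated DLD1 did the values follow the repeat names clearly enough to be read by name, and that rests on repeats outside the LTR names. The 17 AluS names, close relatives of each other, had an SD of 1.63 percentage points there and of 7.81 to 25.01 points in the other 14 libraries. Across the 134 LTR names, the Pearson correlation between technical replicates was -0.0176 in untreated DLD1, 0.0737 in untreated HCT116, 0.182 in untreated HCT8, and 0.0408, -0.0171 and 0.0176 at 1000 nM in the same order. The median absolute difference between the replicates of a name was 8.5 to 19 points. With replicate 1 of untreated DLD1, the other libraries correlated at -0.114 to 0.100 over the same names. These correlations are across repeat names, which are not independent replicates, and are given as descriptions.

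Among the LTR names themselves the picture was less clear. Over the 85 names in series with at least 2 names, the number series held 51.0% of the variance in replicate 1 of untreated DLD1. Series unrelated to the values would hold 34.5% on average with these series sizes. The share was highest of the 15 libraries, but by little: replicate 2 of untreated DLD1 had 50.5%, the HCT8 library at 500 nM 49.7% and replicate 1 of untreated HCT116 49.0%, and the lowest was 19.9%. The intraclass correlation of names within a series, which is 0 where variants of a number are no more alike than other names, was 0.257 in replicate 1 of untreated DLD1 and from -0.231 to 0.249 in the other libraries. Sharing a number was thus not shown to set this library apart from those whose values could not be tied to the names. In series with at least 3 names the share was 42.8%, against 25.9% for unrelated series, 42.0% in the HCT8 library at 500 nM and 19.0% in replicate 2 of untreated DLD1. Within series the pooled SD came to 10.2 points in the DLD1 library read by name and was lower, at 7.49 points, in replicate 1 of untreated HCT116. For LTR12, the largest series, 2 of the other 14 libraries had a lower SD than its 7.35 points.

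**Figure D1:**
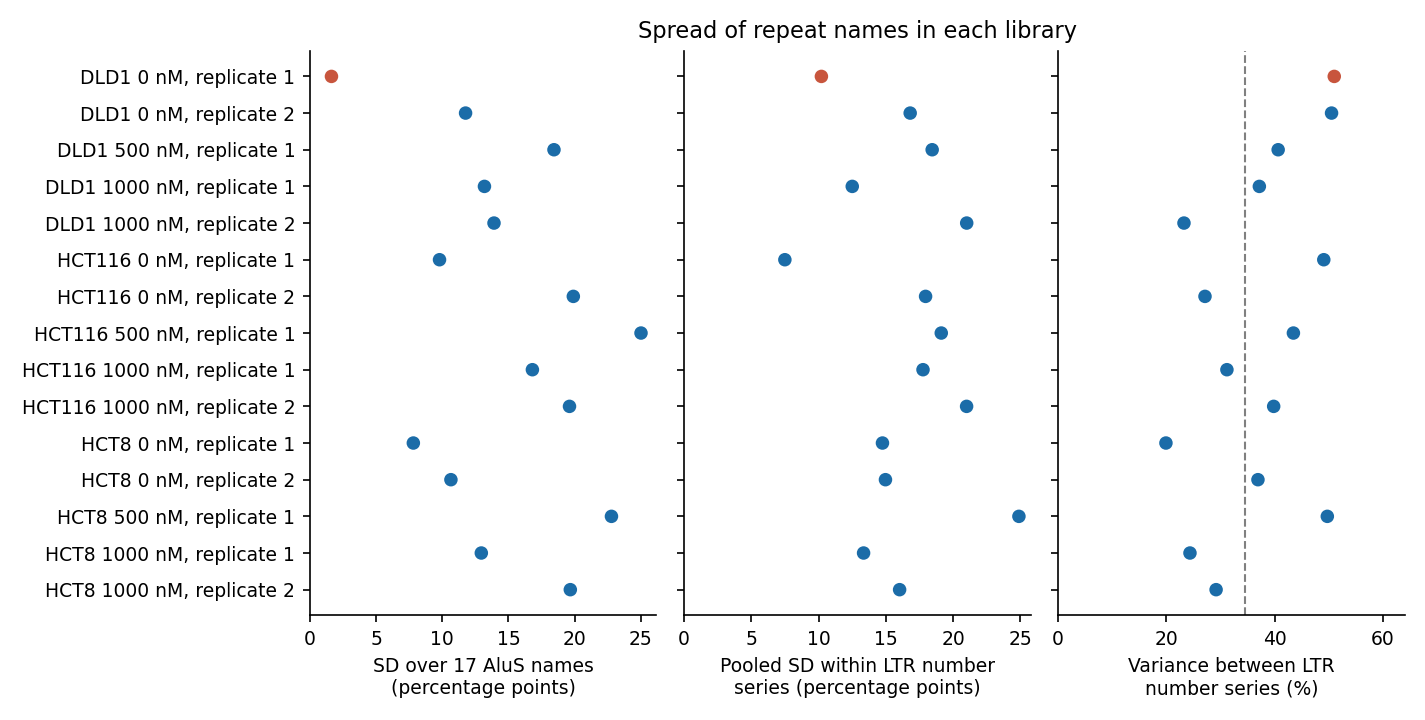
Each point is a library, with replicate 1 of untreated DLD1 in red. The panels plot the SD over the 17 AluS names and the pooled SD within LTR number series, both in percentage points, and the percent of variance among 85 LTR names that lies between number series, with the 34.5% average for unrelated series as a dashed line. The red point is lowest for AluS at 1.63 points, but 1 other library has a lower SD within LTR series, and 3 others lie beside it in the right panel, where it is at 51.0%.

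Levels by name are therefore given for replicate 1 of untreated DLD1 alone. It is a single library, so differences between names have no replicate check and no test was made. In this library the 134 LTR names averaged 61.5%, with a median of 62.5% and an SD over names of 11.3 points, against a mean of 60.1%, a median of 62.0% and an SD of 15.3 points over all 834 named repeats. Of the LTR names 67 (50.0%) lay above the library median, against 48.9% of all named repeats, and 60 (44.8%) lay below it, against 47.7%. These shares are close to the background. Internal regions named HERV averaged 61.8% (30 names), with 46.7% above the library median and 50.0% below. Names starting with MER averaged 61.6% (168 names), with 55.4% above and 41.7% below. The LTR16 and LTR33 names, of ERVL elements, averaged 58.6%, and 3 of the 16 (18.8%) lay above the median and 11 (68.8%) below. Differences between these sets were not tested.

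The LTR names ran from 22% to 84%, with quartiles of 55% and 68.75%, against 54% and 69.75% for all named repeats. From 55% to 69% lay 76 LTR names (56.7%), where 47.1% of all named repeats lay. That band matches the quartiles of the LTR names, so their share in it was largely set by the choice of band. None of the 134 was listed at 0% or 100%, the values of 1.68% of all named repeats (14 rows, of which 6 were tRNA names and 5 simple repeats). In the other 14 libraries between 1 and 30 LTR names (0.746% to 22.4%) were listed at 0% or 100%, against 1.44% to 17.9% of all named repeats.

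A level of 80% or more was listed for 7 names, a share of 5.22% against 5.16% of all named repeats. LTR38B, of the ERV1 class, was highest at 84%. LTR14 and LTR3B_ followed at 83%, LTR21B at 82%, and LTR13A, LTR5 and LTR71A at 81%. Of these, LTR14, LTR3B_, LTR13A and LTR5 are long terminal repeats of ERVK elements. At the low end, 5 names (3.73%, against 8.15% of all named repeats) were below 40%. They were LTR19C at 22%, LTR14C at 29%, LTR19B at 35%, LTR75 at 36% and LTR41B at 38%. LTR14 and LTR14C, at 83% and 29%, carry the same number and stood near opposite ends.

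By class, the 70 ERV1 names averaged 61.6% with an SD of 11.4 points, the 13 ERVK names 63.8% with an SD of 17.04, the 27 ERVL names 60.0% with an SD of 9.92, and the 11 Gypsy-like names 62.2% with an SD of 5.47. The table has no class column, so classes were assigned to 121 of the 126 names from general knowledge of the number series. Above the library median lay 35 of 70 ERV1 names, 8 of 13 ERVK names, 11 of 27 ERVL names and 7 of 11 Gypsy-like names, beside 48.9% of all named repeats. The ERV1 mean exceeded the ERVL mean by 1.63 points, far less than the SD over names in either class. In replicate 2 of untreated DLD1, where values could not be tied to the names, the same difference was -2.81 points. The classes differed more in spread than in level, with ERVK names from 29% to 83% and Gypsy-like names from 52% to 69%. The 4 LTR14 names alone covered that ERVK range (SD 22.9 points), while the SD was 8.66 points in LTR5 and 8.14 in LTR13. The single names LTR22A and LTR3B_ stood at 41% and 83%. The SD over the ERVK names was not compared between libraries. The SD over the Gypsy-like names was 4.76 to 23.8 points in the other libraries, 1 of which was below 5.47.

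**Figure D2:**
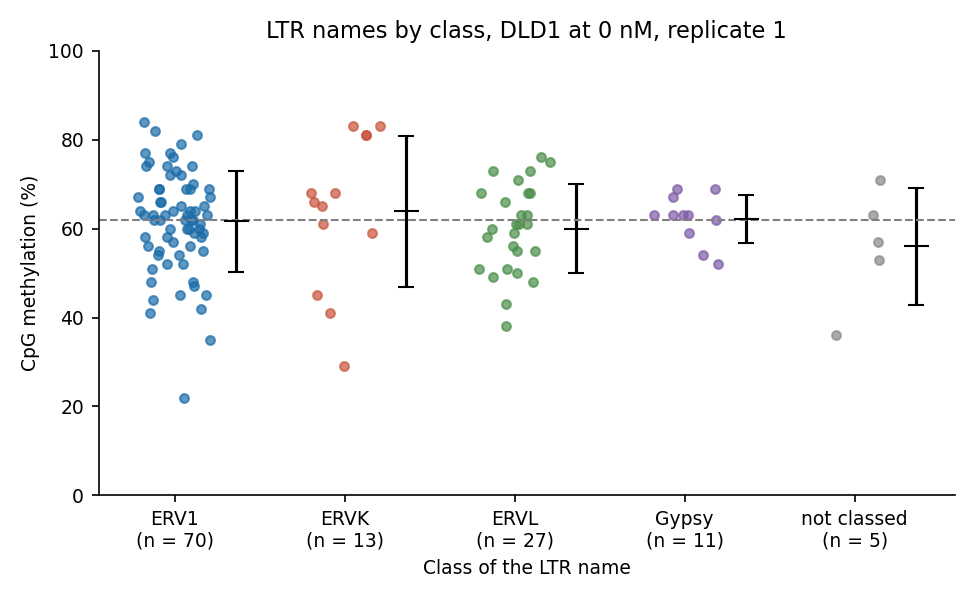
Percent CpG methylation in replicate 1 of untreated DLD1 for 126 LTR names by class, one point a name, with horizontal jitter. The bars give the mean and SD over names, and the dashed line is the median of all named repeats, 62.0%. The class means lie from 56.0% (5 names without a class) to 63.8% (ERVK), and the ERVK names are the most spread of the 4 named classes.

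LTR5 is the long terminal repeat of HERV-K (HML-2), the most recently active retrovirus family of the human genome, and LTR5_Hs is its youngest variant. LTR5 stood at 81%, LTR5B at 68%, LTR5_Hs at 65% and LTR5A at 61%, a mean of 68.8% with an SD of 8.66 points over the 4 names. LTR5 itself lay 13 points above the next, while the other variants were within 7 points of each other and of HERVK-int, the HERV-K internal region, at 66%.

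The other ERVK series varied widely. LTR13, from HERVK13, stood at 68%, LTR13_ at 66% and LTR13A at 81%, against 77% for HERVK13-int. LTR14, from HERVK14, stood at 83%, LTR14A at 59%, LTR14B at 45% and LTR14C at 29%. This range of 54 points was the largest of the 15 series with at least 3 names. HERVK14-int was at 57% and HERVK14C-int at 50%, so LTR14C lay 21 points below the internal region that carries its letter. LTR22A, from HERVK22, was at 41% against 66% for HERVK22-int, and LTR3B_, from HERVK3, at 83% against 51% for HERVK3-int. The single names of these last series lay on opposite sides of their internal regions.

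LTR12, the long terminal repeat of HERV-9, is known as a source of promoters in many human tissues, with LTR12C among its most used variants. It was the largest series, with 7 names and a mean of 69% (SD 7.35 points). LTR12C stood at 79%, LTR12E at 76%, LTR12D at 72%, LTR12_ at 69%, LTR12F at 66%, LTR12 at 63% and LTR12B at 58%. All but LTR12B lay above the library median, and all 7 lay above HERV9-int at 54%, by 4 to 25 points. They share that 1 internal value, so the 7 differences are not independent.

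LTR7 belongs to HERV-H, which is known for its transcription in pluripotent stem cells. LTR7 stood at 62%, LTR7Y at 63% and LTR7B at 77%, with HERVH-int at 62%. LTR7B lay apart from the other variants by at least 14 points, and LTR7 equalled the internal region. LTR10, of the HERV-I group, is known to act as an enhancer in colorectal cancer cells. Its 4 names averaged 56.8% (SD 9.14 points), with LTR10C at 69%, LTR10A at 58%, LTR10E at 52% and LTR10B1 at 48%. LTR10C was the only one of them above the library median. LTR17, the long terminal repeat of HERV-W, whose placental copy drives syncytin-1, stood at 74% against 67% for HERV17-int. LTR2, of HERV-E, was at 65% and LTR2B at 69%, against 65% for HERVE-int and 57% for HERVE_a-int.

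The lowest ERV1 series was LTR19, of HERVFH19. LTR19A stood at 62%, LTR19B at 35% and LTR19C at 22%, a mean of 39.7% with an SD of 20.4 points, while HERVFH19-int stood at 74%. Only LTR19A was at the library median, and the series mean rests on the other 2 names. The related LTR21A and LTR21B, of HERVFH21, were at 60% and 82%, with HERVFH21-int at 75%. LTR45 had 3 names above the library median (77% for LTR45, 72% for LTR45C and 63% for LTR45B), as did LTR13 and, with 5 names, LTR81.

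Among the ERVL series, LTR40 spanned 33 points, from LTR40A1 at 43% and LTR40a at 51% to LTR40b at 66% and LTR40c at 76%. HERVL40-int, at 61%, lay between them. The 3 LTR86 names were all below the library median, at 60% for LTR86A1, 50% for LTR86B2 and 48% for LTR86C. LTR18A was at 75% and LTR18B at 68%, close to HERVL18-int at 66%.

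Of the Gypsy-like series, LTR81 was narrow and LTR85 and LTR88 spanned 11 and 15 points, the latter equal to the median range of the 15 series with at least 3 names. LTR81AB stood at 69%, LTR81 at 67%, and LTR81A, LTR81B and LTR81C at 63% each, a mean of 65.0%. The range of 6 points was the smallest of the series with at least 3 names, shared with LTR1 (LTR1 at 66%, LTR1B and LTR1D at 60%). LTR85c stood at 63%, LTR85b at 59% and LTR85a at 52%. LTR88c stood at 69%, LTR88a at 62% and LTR88b at 54%.

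**Figure D3:**
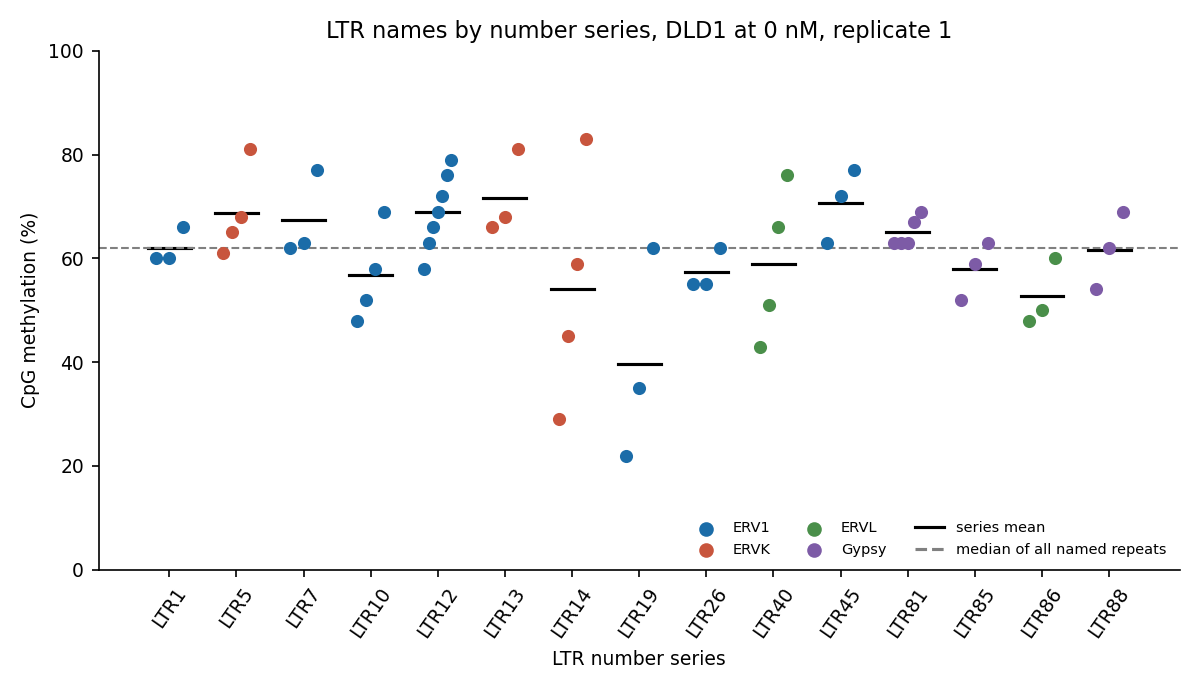
Percent CpG methylation in replicate 1 of untreated DLD1 for the 15 LTR number series with at least 3 names, one point a name, coloured by class, with black bars for series means and a dashed line for the median of all named repeats, 62.0%. The series means run from 39.7% for LTR19 to 71.7% for LTR13, and LTR14 has the widest spread, 29% to 83%.

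Over all series the letter variants of a number were only slightly less spread than the LTR names in general. The pooled SD within series was 10.2 points over the 85 names in series with at least 2 names. It was 11.3 points over all 134 names, a wider set. The intraclass correlation within series was 0.257, as given above. In the 15 series with at least 3 names the range had a median of 15 points, and 8 of them had names on both sides of the library median. All names of LTR13, LTR45 and LTR81 lay above it, and all of LTR86 below it. Of all named repeats, 48.9% lay above it and 47.7% below. How many series of unrelated names would lie wholly on 1 side was not computed. In the 15 series with 2 names the pair differed by 2 to 23 points, with a median of 8.

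A long terminal repeat and its internal region are parts of the same provirus, but many long terminal repeats are solitary copies. For 45 LTR names in 18 series, the table held an internal region known to belong to the same retrovirus. In replicate 1 of untreated DLD1, 26 of the 45 were above the internal region, 18 below and 1 equal, with a median difference of 2.67 points and a mean of -0.452 points (SD 17.4 points over names). The median and the mean thus differ in sign, and both are small beside the spread. In the other libraries, whose values could not be tied to the names, 19 to 29 of the 45 lay above the internal region. Their median differences ran from -4 to 7.5 points, so the count and the median above lie within the range of those libraries. In the DLD1 library read by name, the largest differences above the internal region were 32 points for LTR3B_ and 29.5 points for LTR14. The largest below it were 52 points for LTR19C and 39 points for LTR19B. Where a series had several internal regions their mean was used, which for LTR14 is the mean of HERVK14-int and HERVK14C-int. LTR4, of HERV3, stood at 44% against 70% for HERV3-int, and LTR6A, of HERVS71, at 48% against 66% for HERVS71-int. LTR32 stood at 61% against 52% for HERVL32-int, and LTR66 at 63% against 46% for HERVL66-int. Across the 18 series the mean of the LTR names and the internal region had a Pearson correlation of -0.223 (Spearman's rho -0.0467), and the other libraries gave -0.637 to 0.347.

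The 8 members that end in -int ran from 51% for LTR25-int to 75% for LTR46-int, with a mean of 63.4%. The others were LTR23-int at 73%, LTR39-int and LTR52-int at 68%, LTR57-int at 62%, LTR38-int at 56% and LTR49-int at 54%. LTR23 and LTR39, at 75% and 70%, lay 2 points above the internal region of their number. LTR38 at 67%, LTR38B at 84% and LTR57 at 71% lay 11, 28 and 9 points above theirs. LTR46 at 57%, LTR49 at 45% and LTR52 at 49% lay 18, 9 and 19 points below theirs (differences of -18, -9 and -19). So 5 of these 8 long terminal repeats lay above and 3 below.

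**Figure D4:**
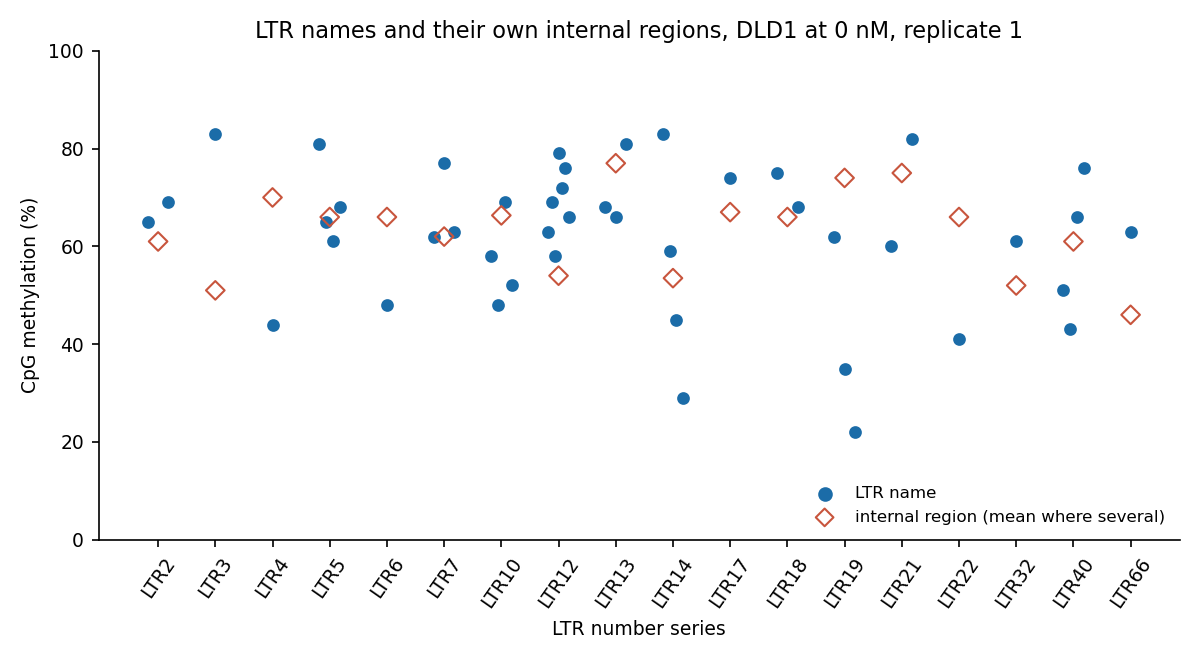
Percent CpG methylation in replicate 1 of untreated DLD1 for 45 LTR names (blue points) and the internal region of the same retrovirus (open red diamonds, a mean where the table has several) in 18 number series. All 7 LTR12 names lie above HERV9-int at 54%, and all 3 LTR19 names lie below HERVFH19-int at 74%.

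In the other 14 libraries the rows under LTR names could not be read by name. LTR5_Hs was listed at 65% and 79% in the replicates of untreated DLD1, at 73% and 67% in those of HCT116 and at 7% and 30% in those of HCT8. LTR7 was listed at 62% and 59%, 69% and 73%, and 82% and 39% in the same libraries. LTR12C was listed at 79% and 65%, 77% and 79%, and 75% and 73%. It was listed at 37% to 65% in the 9 libraries with drug. LTR12D was as even as LTR12C over the untreated libraries, at 67% to 81%, but was listed at 47% and 0% in the replicates of HCT116 at 1000 nM. The other 14 libraries spanned at least 42 points for each of the 14 names of the LTR5, LTR7 and LTR12 series. These spans include differences between lines and doses, so they do not show by themselves that values fail to follow the names.

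**Figure D5:**
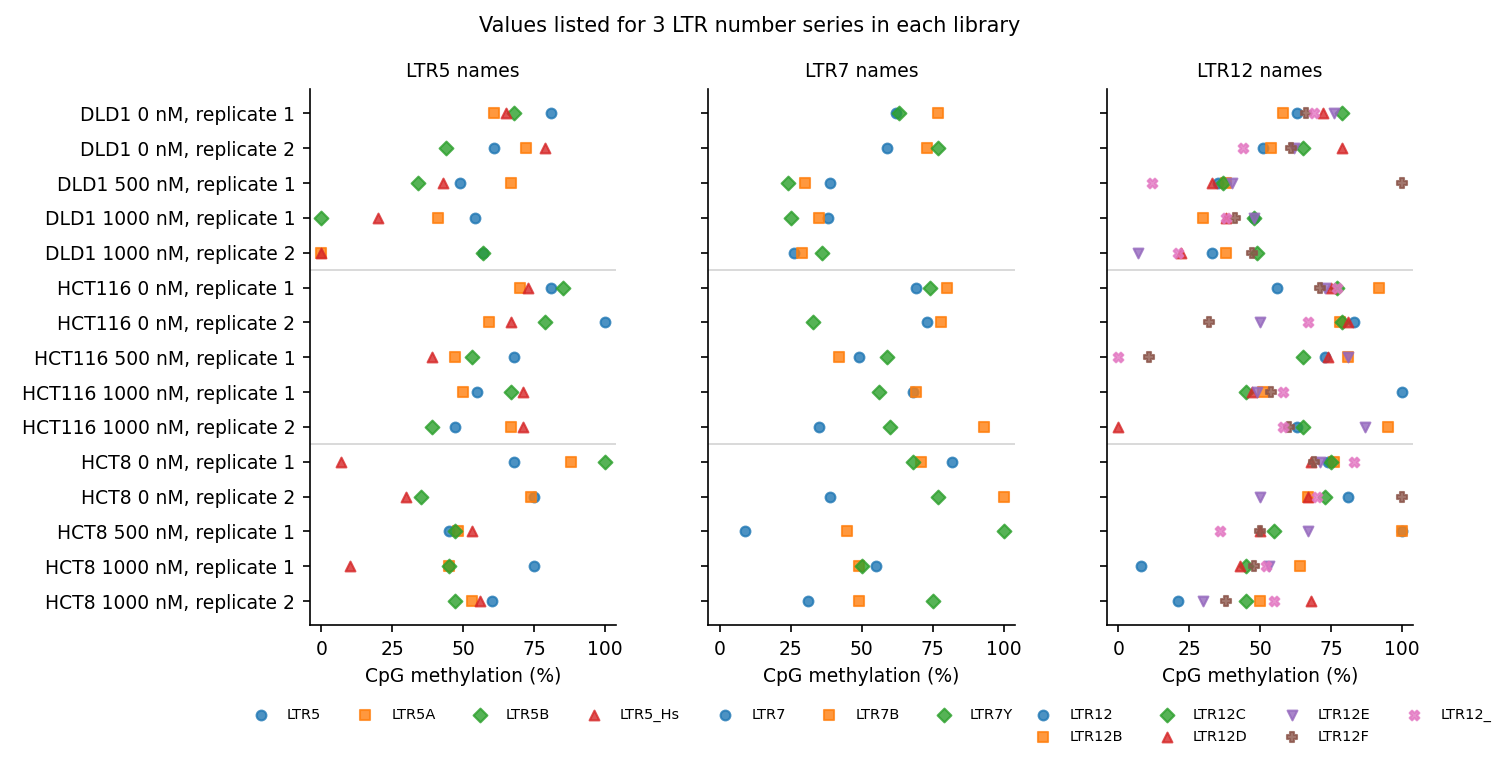
Percent CpG methylation as listed in each of the 15 libraries for the names of LTR5, LTR7 and LTR12, one marker a name, with grey lines between the 3 cell lines. Technical replicates of the same line and dose can list a name far apart, as for LTR5B at 100% and 35% in untreated HCT8.

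The mean of the 134 rows under LTR names is given for each line and dose with the same limit, since it holds for the rows and was not shown to hold for these repeats. In DLD1 it was 60.3% ± 1.58 (SD, n = 2 technical replicates) at 0 nM, 37.2% in the 1 library at 500 nM and 37.1% ± 3.20 (n = 2) at 1000 nM. In HCT116 it was 73.3% ± 1.31 (n = 2), 53.9% and 60.8% ± 5.40 (n = 2). In HCT8 it was 67.9% ± 0.776 (n = 2), 46.5% and 47.5% ± 2.93 (n = 2). Every library with drug lay below both untreated libraries of its line. In each of the 15 libraries the mean of the LTR rows differed by at most 2.08 points from the mean of all 834 rows, so these values follow the level of the whole library and show nothing particular to LTR names.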

How the data were processed

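DNA of 15 libraries was bisulfite converted and sequenced in paired 75 bp reads on a MiSeq, per the labels' protocols; a label that names total RNA contradicts those protocols. Per the file headers, the authors deposited percent CpG methylation per RepeatMasker repeat, as whole percents. The submitters' processing notes name BSMAP 2.74, Picard 1.8.4 and build hg19 without roles. The sources used here give neither coverage filters, depth nor how reads or copies were combined; reads that fit several related repeats make single names uncertain. Of 835 rows, 1 (0.12%) without a name was left out.

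Columns were matched to samples by title. Means, SDs, between-series variance shares and intraclass correlations were computed in Python 3.11.15 with numpy 2.4.6 and pandas 2.3.3, and tested on simulated data. Classes and internal regions were assigned by number series from general knowledge, and 5 names were left unclassed. Names given in the text are the 5 highest and lowest with ties, all names of series with at least 4 names and of the ERVK, LTR2, LTR7, LTR10 and LTR17 series, and those with an internal region or ending in -int; LTR1, LTR45, LTR85, LTR86 and LTR88 were added after their values were seen. The members and lists were chosen with earlier results of these data known. No genome or consensus sequence was used.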

Additional observations from a re-analysis of the deposited data

How the results depend on the processing

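No paired analysis was possible because the results come from no test and were read in 1 library. A value was taken as moved when it changed by more than the 1 point to which the table is rounded. For the share above the median the cut-off was its 95% exact binomial interval over names. Related names are not independent, so that interval served as a cut-off only and not as a test. Of 39 recomputed values 29 stayed within that, 8 moved and 2 changed sign. Part of the 29 could not have moved, so the tally overstates how stable the values are. Leaving out replicate 2 returned the reported values, because these were read in replicate 1 alone. Leaving out rows at either end of the percent scale removed no LTR name and returned every reported value. Adding the LTR16 and LTR33 names left LTR minus internal region unchanged. Leaving out either replicate of untreated DLD1 and reading the other gave mean levels of 59.2% to 61.5%. Shares above the median were 48.5% to 50.0%, variance shares 50.5% to 51.0% and within-series SDs 10.2 to 16.8 points. LTR minus internal region was 2.67 to 3 points, and ERV1 minus ERVL was -2.81 to 1.63 points. The lone change of sign among these came from replicate 2. Each range runs between the reported value and that of replicate 2, whose values could not be tied to the names. Closeness of the ends is therefore no replication. With the mean in place of the median, LTR minus internal region was -0.452 points, and with 1 value per number series it was 1.63 points. The median level was 62.5%. Against the library mean instead of its median, 58.96% of LTR names lay above. The variance share was 42.8% in series with at least 3 names, where replicate 2 gave 19.0%, and 53.4% on ranks. ERV1 minus ERVL was 0.616 points when each series counted once. Adding the same-number -int names as internal regions, an alternative chosen after seeing the data, gave 2.0 points. Depth is unknown and limits every value by name.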
